A study of Homo sapiens with 12 samples.

Results

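The 10 genes examined set the pace of the G1 phase of the cell cycle, here in 2 Ewing sarcoma cell lines that lose the RRM1 protein when doxycycline is removed: the D-type cyclins CCND1, CCND2 and CCND3, the E-type cyclins CCNE1 and CCNE2, and the CDK inhibitors CDKN1A, CDKN1B, CDKN1C, CDKN2C and CDKN2D. They were chosen by their symbols. Of the 10 genes, 9 have a row in the count table of 20771 genes used here, and CDKN1C was not analysed here. The lines, EW8-RRM1-KO and TC71-RRM1-KO, are called EW8 and TC71 below, and each gave 3 RNA libraries labelled 0 h and 3 labelled 48 h (12 in all), where time counts from the removal of doxycycline. In all 4 groups the endogenous RRM1 gene had been disrupted with CRISPR/Cas9 and the cells carried a lentiviral RRM1 transgene, recoded and switched on by doxycycline, so that the 0 h groups had doxycycline and the 48 h groups did not. The knockout lines were derived by cloning from single cells, how many clones gave the libraries is not given in the sources used here, and nothing in the labels says that the 3 libraries of a group came from separate cultures, so that p-values measure only the spread between these libraries, which may be technical.

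As background, D-type cyclins bind CDK4 and CDK6, and E-type cyclins bind CDK2. Both kinases phosphorylate the retinoblastoma protein and so free the E2F factors that switch on genes for DNA replication, the E-type cyclins among them. The Cip/Kip inhibitors p21, p27 and p57 (CDKN1A, CDKN1B and CDKN1C) bind cyclin-CDK complexes, with CDK2 as the best known target, while the INK4 inhibitors p18 and p19 (CDKN2C and CDKN2D) bind CDK4 and CDK6 alone. RRM1 is the large subunit of ribonucleotide reductase, which makes the deoxyribonucleotides for DNA synthesis, and p21 is a classic target of p53.

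The libraries held 18468485 to 35698991 counts, and 16515 genes were tested. Levels are CPM (counts scaled to library size by TMM), given as mean ± SD of 3 libraries, and changes are log2 fold changes from edgeR's quasi-likelihood test, with Benjamini-Hochberg adjustment over all genes tested. The targeted gene RRM1 was at 9.37, 9.51 and 9.67 CPM in EW8 with the label 0 h and at 63.9, 72.6 and 74.1 with the label 48 h. For TC71 the values were 15.7, 15.5 and 17.3 CPM, then 25.7, 26.4 and 24.1. RRM1 RNA thus rose rather than fell (log2 2.88 with adjusted p = 3.37e-27 in EW8, and 0.65 with adjusted p = 2.91e-09 in TC71). Whether reads of the recoded transgene could count toward this gene is not given in the sources used here, and the knockout is carried by every group, so RRM1 does not check the time labels. The 10 Ewing sarcoma markers examined, CD99 and NKX2-2 among them, were all in the table. They summed to 1370 to 1422 CPM at 0 h and 1242 to 1278 at 48 h in EW8, without overlap, and to 1449 to 1488 and 1423 to 1463 in TC71. Of the 10, 5 rose and 5 fell in EW8, while TC71 had 5 higher, 4 lower and 1 not past the threshold. BCL11B fell by 1.11 on the log2 scale in EW8 and by 0.95 in TC71, and NKX2-2 rose by 0.58 and 0.47. Of 12 markers of other cell types, 7 had no row, and the other 5 (PTPRC, EPCAM, ALB, ACTA2 and DCN) summed to 15.3 to 16.4 CPM at 0 h and 29.3 to 30.4 at 48 h in EW8, and to 23.1 to 24.6 and 38.9 to 42.4 in TC71. ACTA2, which encodes smooth muscle actin, rose by 2.07 on the log2 scale in EW8 and 1.05 in TC71, and without it the sums still went from 13.5 to 14.3 up to 21.3 to 22.2 CPM in EW8. The part of both marker lists in the results below was not tested. In bulk RNA, a change in how many cells are of a type or in a phase and a change in RNA per cell cannot be told apart.

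The sequences in front of CDKN1A and CDKN2D, the inhibitors among the 9 genes whose RNA rose most in EW8, and of CCNE1, an E-type cyclin whose change differed between the lines, are given so that the promoters of genes that moved can be read beside their values. They are from RefSeq on GRCh38.p14, read 5′ to 3′ along the gene, and cover the part of the 250 bases before the RefSeq start that lies outside annotated exons. Capitals mark the GC box, GGGCGG on either strand, the short motif bound by Sp1.
CDKN1A (chr6:36678560-36678709, + strand): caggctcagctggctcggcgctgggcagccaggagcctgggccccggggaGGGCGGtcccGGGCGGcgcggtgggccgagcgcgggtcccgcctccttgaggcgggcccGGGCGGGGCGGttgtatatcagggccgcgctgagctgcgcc
CDKN2D (chr19:10569060-10569229, - strand): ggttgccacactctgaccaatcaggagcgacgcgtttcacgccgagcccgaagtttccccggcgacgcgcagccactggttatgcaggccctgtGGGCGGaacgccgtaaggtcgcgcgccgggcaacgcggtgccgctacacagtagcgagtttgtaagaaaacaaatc
CCNE1 (chr19:29811741-29811990, + strand): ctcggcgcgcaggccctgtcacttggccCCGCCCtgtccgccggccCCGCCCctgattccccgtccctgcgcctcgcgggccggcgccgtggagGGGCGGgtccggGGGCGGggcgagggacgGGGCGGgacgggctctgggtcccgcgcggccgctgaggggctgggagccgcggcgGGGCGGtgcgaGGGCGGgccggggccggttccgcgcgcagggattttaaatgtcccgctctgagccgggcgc
The stretch of CDKN1A is 80% G or C and holds 4 GC boxes, of which the last pair overlaps by a single base. That of CDKN2D is 62.4% G or C with 1 box, and that of CCNE1 is 81.2% G or C with 7. Promoters were matched for 6 of the 10 genes, with 10 windows because CDKN2C and CCND3 have 3 starts each. A GC box lay in 8 of the 10 windows, against 42.6% of all 35116 promoter windows of the same length. None of the 10 windows held the AP-1 letters TGANTCA (6.57% of all windows), the CRE letters TGACGTCA (1.65%), the E2F letters TTTCCCGC, TTTGGCGC, TTTCGCGC or TTTGCCGC (2.79% for any of the 4) or TATAAA (10.7%), searched on both strands. A missing match says only that these letters are not in this window.

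The inhibitor CDKN1A (p21) showed the largest rise of the 9 genes in EW8 and of the 8 with a value in TC71. Here and below, gene positions are those of GENCODE 44 on GRCh38, and CDKN1A (ENSG00000124762, chr6:36676460-36687337, + strand) has 3 exons in its canonical transcript. In EW8 its level was 10.0, 12.3 and 10.7 CPM in the 0 h libraries and 117, 113 and 116 CPM in the 48 h libraries. In TC71 it was 18.7, 16.6 and 18.0 CPM at 0 h and 70.3, 67.4 and 83.3 CPM at 48 h. In each line all 48 h libraries lay above all 0 h libraries, and the lines changed places: EW8 had less CDKN1A RNA than TC71 at 0 h and more at 48 h, with no overlap between the lines at either time. CDKN1A rose 10.5-fold in EW8 (log2 3.40, SE 0.08, adjusted p = 4.20e-24) and 4.14-fold in TC71 (log2 2.05, SE 0.07, adjusted p = 1.31e-18).

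CDKN1B (p27, ENSG00000111276, chr12:12685498-12722369, + strand), the other Cip/Kip gene measured, responded in EW8 and did not pass the test in TC71. Its level in EW8 was 69.4, 65.2 and 66.3 CPM at 0 h and 99.3, 104 and 104 CPM at 48 h, with no overlap. In TC71 it was 52.6, 51.3 and 48.2 CPM at 0 h and 52.8, 56.3 and 54.1 CPM at 48 h, where the highest 0 h library and the lowest 48 h library nearly met. The rise in EW8 was 1.53-fold (log2 0.61, SE 0.05, adjusted p = 2.25e-13). In TC71 the change was 0.10 on the log2 scale, with a 95% interval of 0.00 to 0.20 and an adjusted p of 0.103. It passed there when libraries were scaled by total counts alone (0.15, adjusted p = 0.011).

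CDKN2D (p19, ENSG00000129355, chr19:10566460-10569059, - strand), an INK4 inhibitor, rose in both lines. The EW8 libraries held between 19.7 and 20.5 CPM at 0 h and 66.6, 61.9 and 67.3 CPM at 48 h. Those of TC71 held 16.2, 16.1 and 18.5 CPM at 0 h and 29.4, 29.5 and 35.4 CPM at 48 h. The groups did not overlap in either line, and the 48 h values of EW8 lay above every value of TC71. The rise was 3.26-fold in EW8 (log2 1.71, SE 0.07, adjusted p = 2.87e-21) and 1.86-fold in TC71 (log2 0.90, SE 0.07, adjusted p = 3.59e-12).

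CDKN2C (p18, ENSG00000123080, chr1:50960745-50974634, + strand), the other INK4 gene, had the highest level per kilobase of the 4 inhibitors at 0 h. It rose in TC71 and did not pass the test in EW8. In EW8 it was 102, 107 and 106 CPM at 0 h and 100, 101 and 99.3 CPM at 48 h. In TC71 it was 120, 126 and 120 CPM at 0 h and 155, 154 and 159 CPM at 48 h. The TC71 values at 48 h lay above all the others, whereas in EW8 the 48 h values lay just under those at 0 h. CDKN2C rose 1.28-fold in TC71 (log2 0.36, SE 0.04, adjusted p = 1.11e-08). In EW8 the change was -0.06 on the log2 scale (95% interval -0.15 to 0.02, adjusted p = 0.187), and its sign turned to 0.06 when libraries were scaled by total counts alone. It passed as a fall with upper-quartile factors (-0.10, adjusted p = 0.0229) and without EW8 0 h replicate 1 (-0.12, adjusted p = 0.0269).

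**Figure D1:**
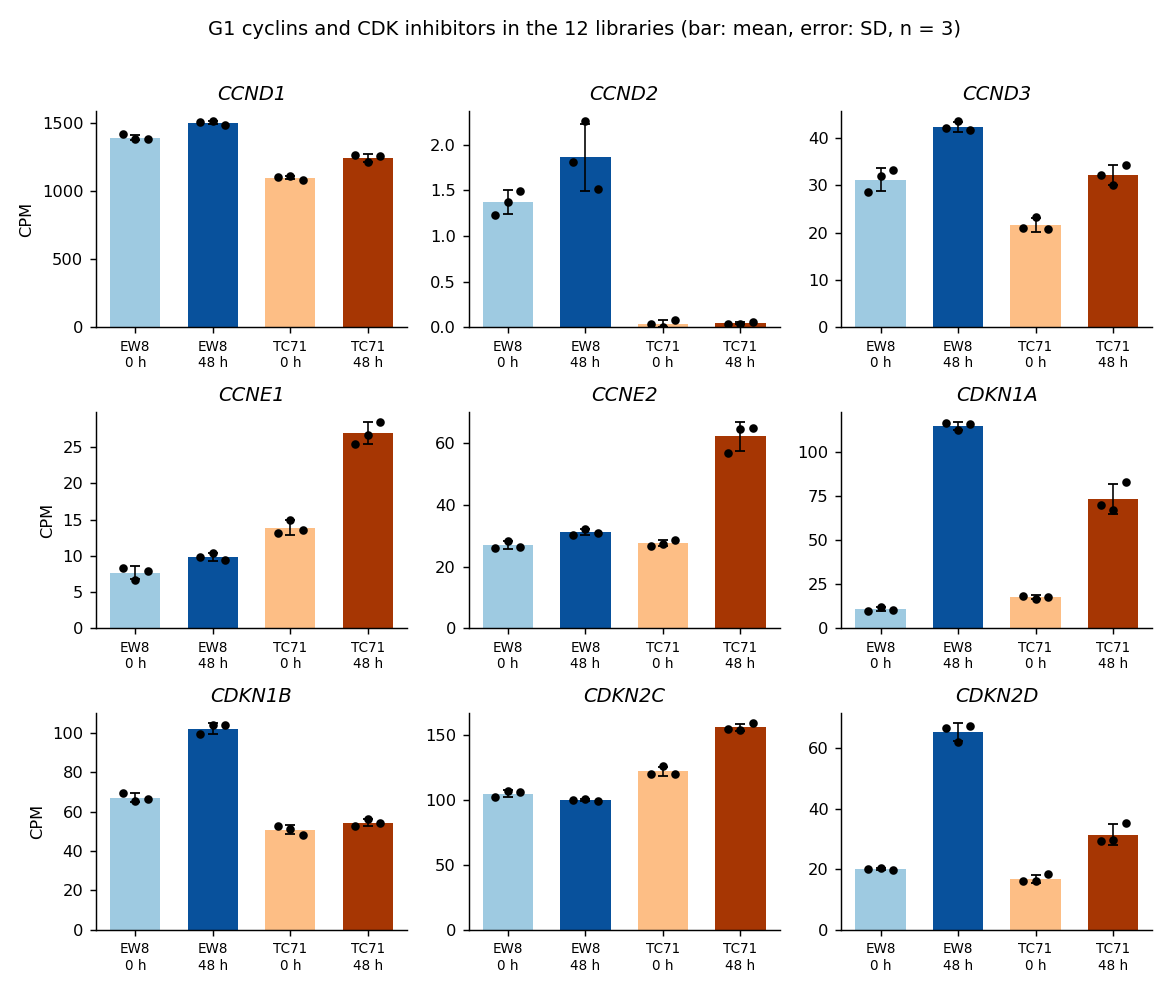
Level in CPM (vertical axes, each from 0) of the 9 measured genes in the EW8 and TC71 libraries labelled 0 h and 48 h. Points are libraries, bars are means and error bars are SDs of 3 libraries. CDKN1A goes from 11 to 115 CPM in EW8 and from 17.8 to 73.6 CPM in TC71, while CCNE1 and CCNE2 reach their highest levels in TC71 at 48 h.

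The E-type cyclins, which with CDK2 start DNA replication, rose more in TC71. CCNE2 (ENSG00000175305, chr8:94879770-94896678, - strand) stood at 26.1, 28.4 and 26.5 CPM in EW8 at 0 h and 30.3, 32.1 and 30.8 CPM at 48 h. In TC71 it stood at 26.7, 27.4 and 28.6 CPM at 0 h and 56.8, 64.6 and 64.8 CPM at 48 h. The lines overlapped at 0 h, and by 48 h every TC71 library was above every EW8 library. CCNE2 rose 2.25-fold in TC71 (log2 1.17, SE 0.06, adjusted p = 1.71e-17). Its rise in EW8 was 1.16-fold (log2 0.21, SE 0.06, adjusted p = 0.00462), and the adjusted p there was 0.0612 without EW8 0 h replicate 1 and 0.0552 without replicate 3.

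CCNE1 (ENSG00000105173, chr19:29811991-29824312, + strand) was the rarer E-type transcript per kilobase in every group. Its EW8 libraries gave 8.37, 6.70 and 7.96 CPM at 0 h and 9.78, 10.4 and 9.40 CPM at 48 h, and its TC71 libraries gave 13.1, 15 and 13.6 CPM at 0 h and 25.4, 26.7 and 28.4 CPM at 48 h. TC71 was above EW8 at both times, and the 48 h values were above the 0 h values in both lines. The rise was 1.94-fold in TC71 (log2 0.96, SE 0.08, adjusted p = 2.43e-12) and 1.27-fold in EW8 (log2 0.34, SE 0.10, adjusted p = 0.00247).

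CCNE2 shares 1522 bases, or 56.9% of its canonical transcript, with exons of INTS8, an Integrator subunit gene on the opposite strand. The libraries came from a stranded kit, but whether strand was used in counting is not given in the sources used here, so reads of the pair may not be separated. INTS8 had 108 ± 2.38 to 146 ± 4.79 CPM in the 4 groups. It changed by -0.07 on the log2 scale in EW8 (adjusted p = 0.182) and fell by 0.12 in TC71 (adjusted p = 0.0282), where CCNE2 rose.

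Among the D-type cyclins CCND1 (ENSG00000110092, chr11:69641156-69654474, + strand), the most abundant of the 9 per kilobase, rose by little. It had 1414, 1380 and 1377 CPM in EW8 at 0 h and 1505, 1509 and 1485 CPM at 48 h, and 1100, 1107 and 1083 CPM in TC71 at 0 h and 1260, 1209 and 1259 CPM at 48 h. The groups did not overlap, since the libraries of a group lay close together. The rise was 1.08-fold in EW8 (log2 0.11, SE 0.03, adjusted p = 0.00332) and 1.13-fold in TC71 (log2 0.18, SE 0.03, adjusted p = 2.66e-05). The EW8 value missed the threshold without EW8 0 h replicate 2 (log2 0.07, adjusted p = 0.0519) or replicate 3 (log2 0.07, adjusted p = 0.0898). CCND1 shares 497 bases (11.7% of its canonical transcript) with LTO1 on the opposite strand, which had 38.2 ± 1.49 CPM in EW8 at 0 h and rose there by 0.45 on the log2 scale (adjusted p = 1.89e-08). In TC71 LTO1 changed by 0.13 (adjusted p = 0.0591), which did not pass.

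CCND3 (ENSG00000112576, chr6:41934934-42050357, - strand), another partner of CDK4 and CDK6, rose in both lines. It had 28.6, 31.9 and 33.2 CPM in EW8 at 0 h and 42.1, 43.6 and 41.6 CPM at 48 h, and 21.0, 23.4 and 20.7 CPM in TC71 at 0 h and 32.1, 30.0 and 34.4 CPM at 48 h. The times did not overlap within either line. The rise was 1.36-fold in EW8 (log2 0.44, SE 0.06, adjusted p = 3.06e-07) and 1.49-fold in TC71 (log2 0.58, SE 0.07, adjusted p = 1.46e-08).

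CCND2 (ENSG00000118971, chr12:4269771-4305353, + strand), the remaining D-type cyclin, separated the lines. EW8 libraries held 28, 24 and 49 counts of it with doxycycline and 34, 45 and 31 without, which made 1.37 ± 0.134 and 1.86 ± 0.372 CPM. TC71 libraries held 1, 0 and 2 reads of it with doxycycline and 1, 1 and 2 without, all under the 3 counts taken as the floor of a library, so no change over time is given for TC71. Scaled for depth, EW8 had 32.9 times the CCND2 reads of TC71 at 0 h (exact 95% interval 10.9 to 162, from 101 and 3 counts) and 39.7 times at 48 h (15.1 to 148, from 110 and 4 counts), with intervals that cover counting error only. The fitted difference at 0 h, 4.87 on the log2 scale, rests on these 3 reads and was 5.72 without TC71 0 h replicate 3 and 4.43 without replicate 2. In EW8 the change was 0.43 on the log2 scale (95% interval -0.02 to 0.89, adjusted p = 0.0875) although the groups did not overlap in CPM, and leaving out 1 EW8 48 h library moved it both ways, to 0.56 without replicate 3 (adjusted p = 0.0484) and to 0.27 without replicate 2 (adjusted p = 0.379).

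**Figure D2:**
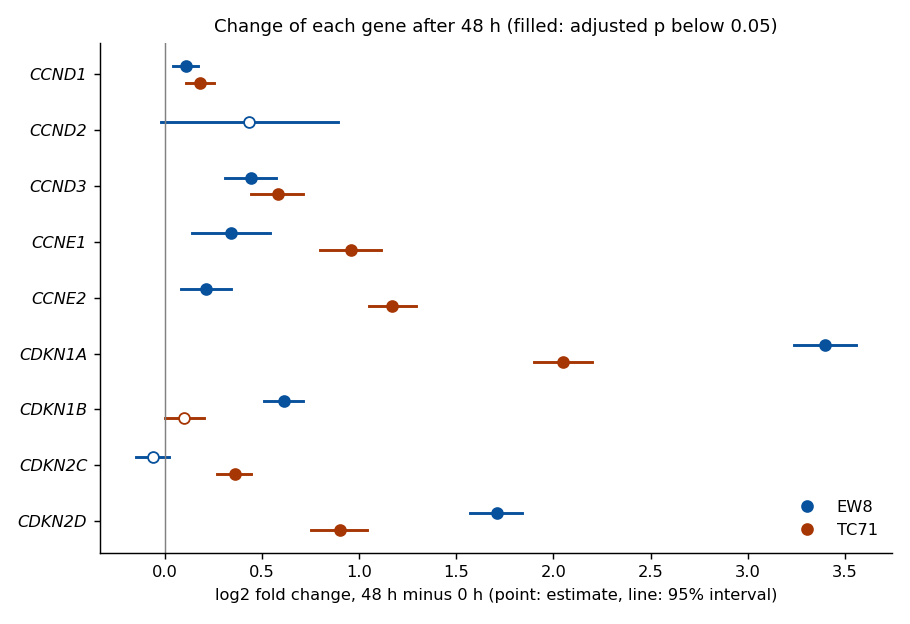
Log2 fold change from 0 h to 48 h (horizontal axis) of each gene in EW8 (blue) and TC71 (brown). Points are estimates, lines are 95% intervals and open points did not reach an adjusted p of 0.05. EW8 exceeds TC71 for CDKN1A (3.40 and 2.05), CDKN2D (1.71 and 0.90) and CDKN1B (0.61 and 0.10), and TC71 exceeds EW8 for CCNE2, CCNE1 and CDKN2C. CCND2 in TC71 is left out because its counts are at the floor.

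Counted together, 7 of the 9 genes rose in EW8 (adjusted p below 0.05) and 0 fell, against 37.0% of all genes tested that rose and 31.6% that fell. By edgeR without adjustment and by DESeq2 with it, 0 genes fell as well, but 1 gene, CDKN2C, fell with upper-quartile factors (-0.10, adjusted p = 0.0229) and without EW8 0 h replicate 1 (-0.12, adjusted p = 0.0269). With a fold above 2 as a further condition 2 rose, CDKN1A and CDKN2D, against 13.9% of all genes. The median change of the 9 was 0.43 on the log2 scale, and that of all genes was 0.03. In TC71, 7 of the 8 genes with a value rose and 0 fell, against 22.9% and 19.2% of all genes, and here too 0 fell without adjustment and by DESeq2. CDKN1A and CCNE2 passed with a fold above 2 in TC71, 2 genes against 3.26% of all genes. The median change of the 8 was 0.74, and that of all genes was 0.00. The 0 h and 48 h values did not overlap for 9 of 9 genes in EW8, against 71.1% of all genes tested, and for 8 of 8 in TC71, against 49.6%.

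The difference of the changes, EW8 minus TC71, was tested for 8 genes to ask whether the lines responded alike. It uses the same libraries as both within-line comparisons. The change of 3 inhibitors was larger in EW8: CDKN1A by 1.35 on the log2 scale (SE 0.11, adjusted p = 6.91e-11), CDKN2D by 0.81 (SE 0.10, adjusted p = 3.58e-08) and CDKN1B by 0.51 (SE 0.07, adjusted p = 1.93e-07). The change of 3 genes was smaller in EW8: the difference was -0.96 for CCNE2 (SE 0.09, adjusted p = 4.33e-11), -0.61 for CCNE1 (SE 0.12, adjusted p = 1.13e-04) and -0.42 for CDKN2C (SE 0.06, adjusted p = 3.76e-07). Of all genes, 25.7% passed upward and 22.4% downward. CDKN1A alone passed with a fold above 2, as 7.28% of all genes did upward, and CCNE2 passed too without EW8 0 h replicate 1 or without TC71 48 h replicate 1, which makes 2. CCND1 and CCND3 did not pass, with differences of -0.07 (95% interval -0.16 to 0.02, adjusted p = 0.203) and -0.14 (-0.33 to 0.05, adjusted p = 0.237). For CCND1 the difference passed without EW8 0 h replicate 2 (-0.12, adjusted p = 0.0235) and was 0.00 with scaling by total counts alone. The p21, p27 and p19 inhibitor RNAs and the E-type cyclin RNAs differed between the lines in opposite directions. CCND2 was not tested for this difference.

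With doxycycline, before the change, the lines already differed in 8 of the 9 genes. EW8 had more RNA of 5 genes, against 32.8% of all genes: CCND2 (adjusted p = 4.70e-11, counts above), CCND3 (log2 0.53, adjusted p = 2.20e-08), CDKN1B (0.40, adjusted p = 1.21e-08), CCND1 (0.34, adjusted p = 2.43e-11) and CDKN2D (0.24, adjusted p = 0.00715). EW8 had less RNA of 3, against 32.9% of all genes: CCNE1 (-0.84, adjusted p = 6.16e-10), CDKN1A (-0.71, adjusted p = 1.02e-07) and CDKN2C (-0.22, adjusted p = 2.66e-05). CCNE2 gave a difference of -0.03 (95% interval -0.16 to 0.10, adjusted p = 0.654). Only CCND2 passed with a fold above 2, as 4.77% of all genes did upward. The groups did not overlap for 8 of the 9 genes, CCNE2 being the exception, against 68.3% of all genes tested. The difference of CDKN2D was lost with total counts alone (0.11, adjusted p = 0.241) and with upper-quartile factors (0.16, adjusted p = 0.0709).

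Levels of different genes were compared per kilobase of the canonical transcript. CCND1 was highest in all 4 groups, at 328 ± 4.75 CPM per kb in EW8 and 259 ± 2.99 in TC71 at 0 h, and CDKN2C was next, at 105 ± 2.75 and 123 ± 3.39. At 0 h CDKN1B followed at 27.8 ± 0.907 in EW8 and 21.0 ± 0.938 in TC71, while CDKN1A was among the lowest, at 5.20 ± 0.555 and 8.39 ± 0.519, above CCNE1 and CCND2 alone. At 48 h CDKN1A had moved to the place after CDKN2C in both lines, at 54.4 (53.3 to 55.3) and 34.8 (31.8 to 39.3) over the libraries. Neighbours whose libraries overlapped were CCND3 and CDKN2D in EW8 at 0 h, CDKN2D, CCND3 and CCNE2 in TC71 at 0 h, and CCNE2, CDKN1B and CDKN2D in TC71 at 48 h. With the union of all annotated exons as the length, CCND1 stayed highest, but in EW8 at 48 h CDKN2D (43.3 CPM per kb) and CDKN1A (38.5) then stood above CDKN2C (33.2). In TC71 at 0 h CDKN1A (5.93) then stood above CCNE1 (5.65), CDKN1B (5.48) and CCND3 (3.76) by their means, although the libraries of CDKN1A (5.53 to 6.25) overlapped those of CCNE1 (5.33 to 6.10) and CDKN1B (5.21 to 5.68), so that part of the order depends on the length used.

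Summed per kilobase, the 4 inhibitors went from 152 ± 2.43 to 244 ± 1.67 in EW8 and from 164 ± 2.60 to 236 ± 8.62 in TC71. CDKN1A made up 3.41 ± 0.314% of this sum in EW8 at 0 h and 22.3 ± 0.298% at 48 h, while CDKN2C went from 69.1 ± 0.759% to 41.4 ± 0.714%. In TC71 CDKN1A went from 5.12 ± 0.390% to 14.7 ± 1.14% and CDKN2C from 74.8 ± 0.883% to 66.4 ± 1.40%. CDKN2C led this sum in every group. With the union of exons as the length CDKN2D led in EW8 at 48 h, with 34.4% against 26.4% for CDKN2C. The E-type sum went from 14 ± 0.0435 to 16.7 ± 0.570 in EW8 and from 17.4 ± 0.633 to 37.0 ± 2.40 in TC71, and CCNE2 made up 59.2 ± 1.81% to 72.0 ± 3.16% of it. How far the overlap with INTS8 affects this share or the other per-kilobase values of CCNE2 was not tested. The D-type sum went from 344 ± 3.58 to 375 ± 3.45 and from 269 ± 3.59 to 309 ± 7.88, and CCND1 made up 94.3 ± 0.110% to 96.0 ± 0.225% of it.

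**Figure D3:**
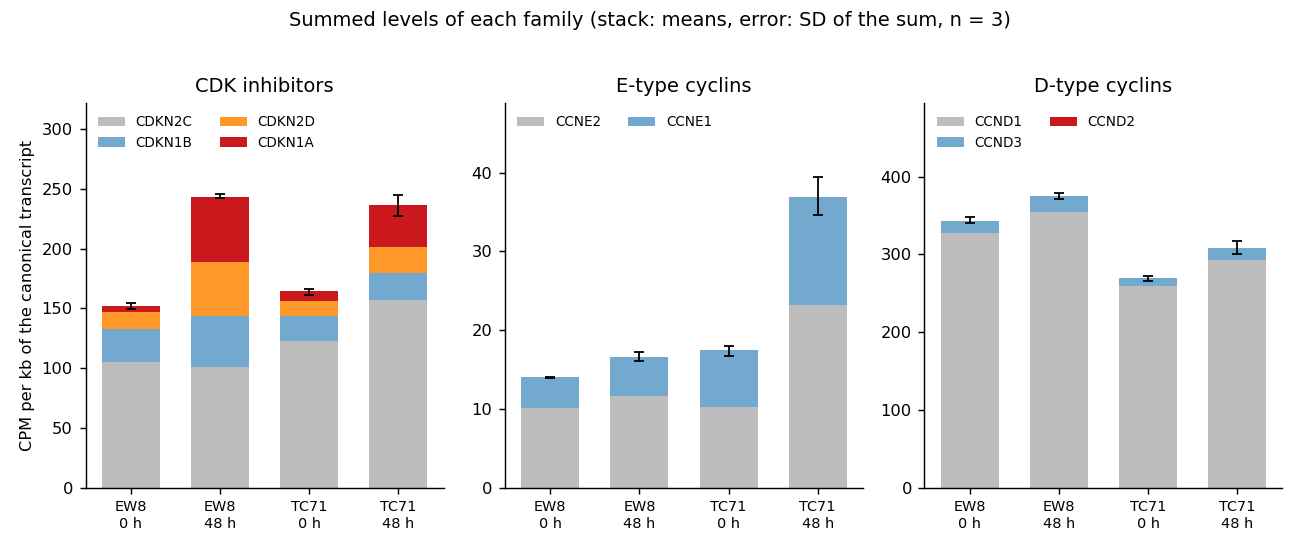
Summed level of each family in CPM per kb of the canonical transcript (vertical axes, each from 0) in the 4 groups. Stacked colours are the group means of the genes and error bars are the SD of the sum over 3 libraries. The inhibitor sum reaches 244 in EW8 and 236 in TC71 at 48 h, and the E-type sum reaches 37.0 in TC71 but 16.7 in EW8.

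The genes around these cyclins and inhibitors were counted list by list, against the 37.0% of all genes that rose and 31.6% that fell in EW8 and the 22.9% and 19.2% in TC71. Of 15 genes for the G1 kinases, their activators and the A-type cyclins, EW8 had 7 that rose against 5 that fell, and TC71 had 5 against 3 among 14 with a value. CDK6, a partner of the D-type cyclins, went from 183, 126 and 220 reads to 405, 442 and 445 in EW8, and rose there (log2 1.58, SE 0.10, adjusted p = 3.83e-15). In TC71 it had 0 counts in 5 of the 6 libraries and 3 in the other. With 3 counts per library as the floor, CDK6 was at least 57.3-fold higher in EW8 at 0 h. CDK2, the partner of the E-type cyclins, fell in EW8 from 85.1 ± 2.07 to 71.8 ± 1.93 CPM (log2 -0.25, adjusted p = 1.89e-05) and rose in TC71 from 62.4 ± 1.39 to 81.0 ± 2.76 CPM (log2 0.38, adjusted p = 4.70e-08), and the difference of these changes passed the test (-0.62, adjusted p = 1.39e-09). HSP90AB1, a chaperone that helps CDK4 fold, fell by 0.85 on the log2 scale in EW8 and by 0.21 in TC71.

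A further list held genes with names tied to CDK inhibitors or CDK2, not all of which encode inhibitors. Of the 5 tested, CDKN2B alone is an INK4 or Cip/Kip gene. In EW8 2 rose (CDKN2B and CDKN2AIP) and 2 fell (CDK2AP1 and CDK2AP2). In TC71 3 rose (CDKN2B, CDKN2AIP and CDK2AP2) and 1 fell (CDKN3). CDKN2B (p15), an INK4 gene that was barely detected at 0 h, went from 5, 6 and 11 reads in the EW8 libraries to 62, 66 and 88, and from 5, 14 and 10 to 38, 24 and 43 in TC71. All 48 h counts were above the 0 h counts in their line. CDKN2B rose by 3.58 on the log2 scale in EW8 (SE 0.29, adjusted p = 3.68e-13) and 1.58 in TC71 (SE 0.32, adjusted p = 1.33e-04), with a difference of 2.0 (adjusted p = 0.00117). CDKN2A, with 2 to 14 counts per library, did not pass the filter on low counts. Of 13 pocket protein and E2F genes, 7 rose in EW8 against 3 that fell, and TC71 had 8 against 2. The E2F factors E2F7 and E2F8, which repress E2F targets, rose by 0.98 and 0.73 in EW8 and by 1.23 and 0.85 in TC71. E2F2, an activating member, rose by 0.62 and 0.90.

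Of 24 E2F target genes of G1/S and replication, a list that leaves out the cyclins, EW8 had 14 that fell against 9 that rose, with a median of -0.19 on the log2 scale, whereas in TC71 21 rose and the other 3 did not pass, with a median of 0.33. The difference of the changes was below 0 and past the threshold for 23 of the 24, the direction of CCNE1 and CCNE2, against 22.4% of all genes. PCNA, the sliding clamp of the replication machinery, went from 482 ± 16.8 to 240 ± 8.78 CPM in EW8 and from 365 ± 3.72 to 472 ± 9.11 CPM in TC71. It fell by 1.0 in EW8 (adjusted p = 4.51e-22) and rose by 0.37 in TC71 (adjusted p = 4.66e-10). CDT1, a licensing factor, rose by 0.46 in EW8 and 1.02 in TC71, and RRM2, the small subunit that pairs with RRM1, rose by 0.25 and 0.99. Of 23 p53 target genes tested, EW8 had 17 that rose and 4 that fell (median 0.34), and in TC71 12 rose and the other 11 did not pass (median 0.29). The largest rises in EW8 were those of BTG2, an antiproliferative gene, at 3.43 in EW8 and 1.92 in TC71, BBC3, which encodes the death protein PUMA, at 3.28 and 1.39, and the kinase gene PLK3, at 2.66 and 1.29. Each of these 3 rose more in EW8, with differences of 1.51 (adjusted p = 7.72e-08), 1.89 (adjusted p = 1.70e-05) and 1.38 (adjusted p = 9.98e-10). Over the whole p53 list the difference of the changes was higher in EW8 for 11 genes, lower for 5 and not past the threshold for 7, with a median of 0.15, against 25.7% and 22.4% of all genes.

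Another list of 18 genes held ubiquitin ligases that act on G1 cyclins or inhibitors, their partners, and the deubiquitinases USP2 and USP28. EW8 had 10 that fell against 5 that rose, and TC71 had 7 against 4. USP2 was among those that fell in both lines, and USP28 among those that rose in TC71. DTL, the substrate receptor that directs p21 and CDT1 to degradation in S phase, rose by 0.91 in EW8 and 0.71 in TC71. RNF123, a subunit of the ligase for p27, rose by 0.63 in EW8 (adjusted p = 1.60e-12) and gave -0.04 in TC71 (adjusted p = 0.59). Of 20 mitotic genes, 13 fell in EW8 against 4 that rose, and TC71 had 12 against 4. CDC20, an activator of the anaphase-promoting complex, fell by 1.5 and 1.06, and PLK1 fell by 0.98 and 0.87. CENPE, a kinetochore motor, went the other way in EW8, with a rise of 1.07. Of 22 other cyclin genes tested, some of which, such as CCNB1 and CCNA1, are also in the lists above, EW8 had 9 higher and 10 lower. TC71 had 3 higher and 5 lower. Among them CCNG2, an atypical cyclin that rises in arrested cells, rose by 2.18 in EW8 and 0.63 in TC71.

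**Figure D4:**
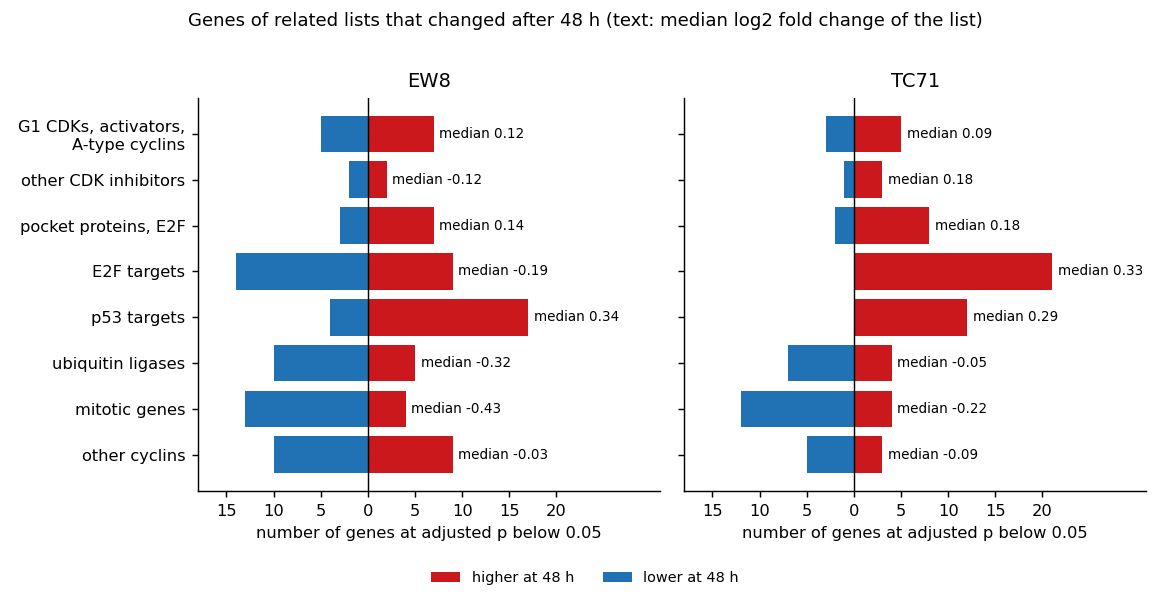
Number of genes in 8 related lists that rose (red) or fell (blue) at an adjusted p below 0.05 from 0 h to 48 h in EW8 (left) and TC71 (right), with the median log2 fold change of each list. The E2F targets split between 9 up and 14 down in EW8 but rose in TC71 (21 of 24), and mitotic genes mostly fell in both lines. The lists share some genes, and those labelled other CDK inhibitors and ubiquitin ligases also hold genes of other kinds.

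For each cyclin or inhibitor that passed in both lines, the genes whose log2 CPM followed it most closely over the 12 libraries were found by Pearson's r. This is a description in which the 4 groups, not single libraries, make most of the spread. For CDKN1A they were BTG2 (r = 0.997), JUN (r = 0.997) and ZFP36 (r = 0.996), which are immediate-early or stress-response genes. For CDKN2D they were KCNE4 (r = 0.996), DUSP1 (r = 0.996) and LIPH (r = 0.995). For CCNE1 they were MTSS1 (r = 0.990), RPA2 (r = 0.988) and MAP3K3 (r = 0.987), where RPA2 encodes a subunit of the single-strand DNA binding protein. For CCNE2 they were ASF1B (r = 0.983), ZNF823 (r = 0.982) and RAD54L (r = 0.963), where ASF1B is a histone chaperone and RAD54L a recombination factor. For CCND1 they were MYBL2, COCH and IGSF10 (r from 0.990 to 0.991), and for CCND3 they were PMM1 (r = 0.983), ARC (r = 0.976) and SKA1 (r = 0.974).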

How the data were processed

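Polyadenylated RNA of the EW8 and TC71 knockout lines was sequenced in 12 libraries, prepared per the labels with a stranded mRNA kit. The authors deposited raw gene counts, aligned to hg38 with STAR after FastQC. The counting tool, its annotation and its strand setting are not given in the sources used here. The smallest gene sum over the libraries is 21, so rarer genes have no row, and 19943 of 20771 identifiers matched GENCODE 44, which gave positions and lengths. The table has no columns beyond the 12 libraries.

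From the counts, genes were filtered with filterByExpr of edgeR 4.0.16 (R 4.3.3, limma 3.58.1; minimum count 10, minimum total 15), scaled with TMM and fitted over all 12 libraries and 4 groups with a robust quasi-likelihood model. Adjusted p below 0.05, with or without a fold above 2, was the threshold, and the common biological coefficient of variation was 4.17%. Replicate pairs differed by more than counting noise (chi-square per gene 1.98 to 9.16), so none was treated as 1 library deposited again. This does not show that they came from separate cultures. Shares and sums used CPM per kb of the canonical transcript. The CCND2 interval is an exact 95% interval for the ratio of 2 counts. The fit was tested on simulated counts. Alternatives were other scalings, filters, thresholds, a fit without the robust step, each line alone, a replicate block, DESeq2 1.42.0, and each library left out. Figures used Python and matplotlib.

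Named genes were all 10 members, RRM1, genes with exons that overlap a member's, up to 4 genes per list and line with the largest change at an adjusted p below 0.05, and the 3 genes most correlated with each member that passed in both lines. CDKN2A was named after its counts were seen. The members and lists were chosen with earlier results of these data known.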

Additional observations from a re-analysis of the deposited data

Results flagged for a closer look

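The change from 0 h to 48 h differed between the lines, by the test of the difference itself, for 6 of the 8 genes with a value, 3 higher and 3 lower, against 25.7% of all genes higher and 22.4% lower. In log2 units, EW8 minus TC71, the difference was 1.35 for CDKN1A, 0.81 for CDKN2D and 0.51 for CDKN1B, which rose more in EW8, and -0.96 for CCNE2, -0.61 for CCNE1 and -0.42 for CDKN2C, which rose more in TC71. The 6 values rest on the same 12 libraries. The lines were derived by cloning from single cells, and effects of line and of clone cannot be told apart here. The change of RRM1 differed between the lines as well (2.23, adjusted p = 3.06e-18). The part of RRM1 levels and of the markers of other cell types in these differences was not tested.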

How the results depend on the processing

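With the adjusted p alone, 7 genes passed in EW8, 7 in TC71, 6 for the difference of the changes and 8 between the lines at 0 h. A minimum of 10 counts in every library left CCND2 untested, and with it 0 of the other genes passed edgeR with a fold above 2 between the lines at 0 h, at an unadjusted p as well. With 1 library left out in turn, the number that passed with a fold above 2 was 2 to 2 in EW8, 2 to 3 in TC71, 1 to 2 for the difference and 1 to 1 at 0 h. Scaling by total counts alone moved the median of all genes by 0.13 in EW8 and by -0.13 between the lines at 0 h. With it CDKN2C in EW8 was 0.06 (adjusted p = 0.184) and the difference of CCND1 was 0.00 (adjusted p = 0.97), CCND2 in EW8 passed at 0.56 (adjusted p = 0.028), CDKN1B in TC71 at 0.15 (adjusted p = 0.011) and CCNE2 at 0 h at -0.17 (adjusted p = 0.0197), shifts of about the size of that of the median. CDKN2C in EW8 passed with upper-quartile factors (-0.10, adjusted p = 0.0229) and without EW8 0 h replicate 1 (-0.12, adjusted p = 0.0269). CCNE1 in TC71 passed a fold of 2, at up to 1.01 on the log2 scale, with total counts alone or without TC71 0 h replicate 2. The rises of CDKN1A, CDKN2D, CDKN1B, CCND3 and CCNE1 in EW8 and of CDKN1A, CCNE1, CCNE2, CDKN2D, CDKN2C, CCND1 and CCND3 in TC71, and the 6 differences that passed, kept their direction and an adjusted p below 0.05 under every other scaling, filter, fit and left-out library run. The stricter threshold, adjusted p below 0.01 with a fold above 2, left the same genes as 0.05 with that fold: CDKN1A and CDKN2D in EW8, CDKN1A and CCNE2 in TC71, and CDKN1A for the difference. The replicate block changed no call of these genes and took the genes called with a fold above 2 from 2848 to 2856 in EW8 and from 680 to 663 in TC71. Same-numbered libraries of a line correlated at -0.307 to 0.021, which gave no sign of a pairing by number. With 3 libraries per group, these values cannot show that same-numbered samples were handled separately. Depth limits CCND2 in TC71, CDK6 in TC71 and CDKN2B at 0 h.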
